A study of Mus musculus with 12 samples.

Results

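The 44 genes described here encode the sensors, the transcription factor and the effectors of the unfolded protein response, together with the channel, signal peptidase and coat proteins through which secretory proteins enter and leave the endoplasmic reticulum (ER). They were chosen by name: a probe belongs to the set when its gene name on the array is a listed symbol. All 44 were found among the 34650 gene names on the array, with 62 probes, and all 44 were among the 16497 genes tested. The probe used for each was well above background on all 12 arrays, so no member was lost to a filter on dim signals.

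The cells were splenic B cells, purified by negative selection, of female BALB/c mice aged 9 weeks that were wild type or STAT6 ko. STAT6 is the transcription factor that the IL-4 receptor activates, and the labels do not say how the knockout was made. All cells, controls included, spent 4 days in culture with anti-CD40 at 10 µg/ml and the bacterial product LPS at 2 µg/ml, so every control is an activated B cell. IL-4 (25 ng/ml) was added or left out, which gave 4 groups of 3 arrays, a control and an IL-4 group for each genotype. The labels do not say whether the triplicates came from separate mice, so p-values measure the spread between these samples, which may be technical.

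The ER folds and modifies proteins that are to be secreted or placed in membranes. When unfolded proteins build up, the membrane proteins IRE1 (gene Ern1), PERK (Eif2ak3) and ATF6 (Atf6) signal to the nucleus. IRE1 splices the messenger RNA of Xbp1, PERK slows translation and favours that of ATF4, and ATF6 is cut to release a transcription factor. Their targets include chaperones, disulfide isomerases and the machinery of ER-associated degradation. B cells that become plasma cells expand this system, under Xbp1, to secrete antibody. An array of this kind measures the RNA of these genes, not splicing, cleavage or phosphorylation.

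A known binding site of ATF6 and XBP1 is the ER stress response element (ERSE), which has CCAAT and CCACG separated by 9 bases. RefSeq promoter windows (GRCm38.p6, 250 bases before to 50 after the start) were matched by symbol for 36 of the 44 genes (38 windows). On either strand, ERSE was found in 10 of the 38 windows (26.3%) and in 39 of 32851 windows of the same length over all genes (0.119%). The members thus hold 25.6% of all windows with the element, which is background on the choice of genes and not a finding of the experiment. The stretches below are a selection from these 10 windows, 5′ to 3′ along the gene, with the element in capitals.
Hspa5, chr2:34772000-34772068, plus strand: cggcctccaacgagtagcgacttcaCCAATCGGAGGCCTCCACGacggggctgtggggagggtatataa
Derl3, chr10:75893217-75893285, plus strand: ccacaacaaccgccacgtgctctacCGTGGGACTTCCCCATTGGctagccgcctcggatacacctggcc
Ero1lb, chr13:12565657-12565725, plus strand: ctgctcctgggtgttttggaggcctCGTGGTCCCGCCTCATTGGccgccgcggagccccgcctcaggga
Creld2, chr15:88819495-88819563, plus strand: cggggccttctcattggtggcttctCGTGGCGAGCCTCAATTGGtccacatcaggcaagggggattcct
Canx, chr11:50325775-50325843, minus strand: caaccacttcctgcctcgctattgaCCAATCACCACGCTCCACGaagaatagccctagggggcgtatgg

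A related element, ERSE-II, has ATTGG and CCACG separated by 1 base and was found in 2 of the 38 windows (5.26%, against 0.0365% of all). These belong to Herpud1 and Dnajb11. The core bound by XBP1 and ATF6, TGACGTGG, was found on either strand in 1 of the 38 windows (2.63%, against 0.676% of all), that of Sec24d. The shorter ACGTG, which TGACGTGG contains, was found in 15 of them (39.5%, against 19.6% of all). A match of letters is a description and not a measured site.
Herpud1, chr8:94386352-94386412, plus strand: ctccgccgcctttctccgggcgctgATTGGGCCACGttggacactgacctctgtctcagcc
Sec24d, chr3:123267445-123267495, plus strand: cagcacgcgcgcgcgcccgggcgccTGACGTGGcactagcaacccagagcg

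Signals are given on the log2 scale relative to the 75th percentile of each array, so a value of 0 is the level of that percentile, and levels of different genes are not compared. Between 40.7% and 44% of spots were well above background on an array, and arrays of a group correlated at 0.994 to 0.998 across genes. The 12 arrays lay on 2 slides. The 6 wild-type arrays shared slide 1 with knockout controls 1 and 2, while knockout control 3 was on slide 2 beside the 3 arrays of knockout cells with IL-4. A fit with slide as a block was therefore made beside each comparison. For IL-4 in the knockout it compares the IL-4 arrays with control 3 alone, a lone array assumed to vary like the other groups, so a p within slide 2 is a weak check, and for knockout against wild type with IL-4 it has no comparison within a slide. Stat6, the targeted gene, was measured at 3.11 to 3.42 on the wild-type arrays and 1.13 to 1.59 on the knockout arrays (log2 difference -1.94 without IL-4, limma adjusted p = 1.03e-06). Whether that probe lies in the deleted part is not known. All 8 B cell markers were well above background on all arrays, as were 6 of 8 plasma cell, 5 of 7 T cell, 2 of 5 NK cell, 5 of 7 macrophage, 3 of 6 dendritic cell and 1 of 5 neutrophil markers. Cd8a, Ncr1, Klrb1c, Xcr1, Clec9a, Ly6g, Mpo and the plasma cell marker Tnfrsf17 were above background on no array.

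With IL-4, the 44 genes did not move one way. In wild-type cells 14 rose and 10 fell, with Derl1 2.10-fold higher and Derl3 8.42-fold lower at the ends of the range. In knockout cells 4 rose and 17 fell, and the falls included Xbp1, Sec24d, Creld2 and Derl3. A gene was said to rise or fall when limma's adjusted p, by Benjamini-Hochberg over all 16497 genes, was under 0.05 at any size. In wild type, 31.8% of the members rose where 26.4% of all genes rose, and 22.7% fell where 30.8% of all genes fell. In the knockout, 9.09% rose where 27.5% of all genes rose, and 38.6% fell where 14.7% of all genes fell. With a change of at least 2-fold required, Derl1 and Derl3 passed in wild type (4.55% of the members, against 12.7% of all genes) and Derl3 in the knockout (2.27%, against 3.52%). The median log2 change of the members was 0.01 in wild type, where that of all genes was -0.04, and -0.13 in the knockout, where that of all genes was 0.05. Changes were mostly small: the median size over members was 0.20 in wild type and 0.17 in the knockout, and over all genes 0.29 and 0.21. The counts of smaller groups and lists given later stand against the same shares of all genes.

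**Figure D1:**
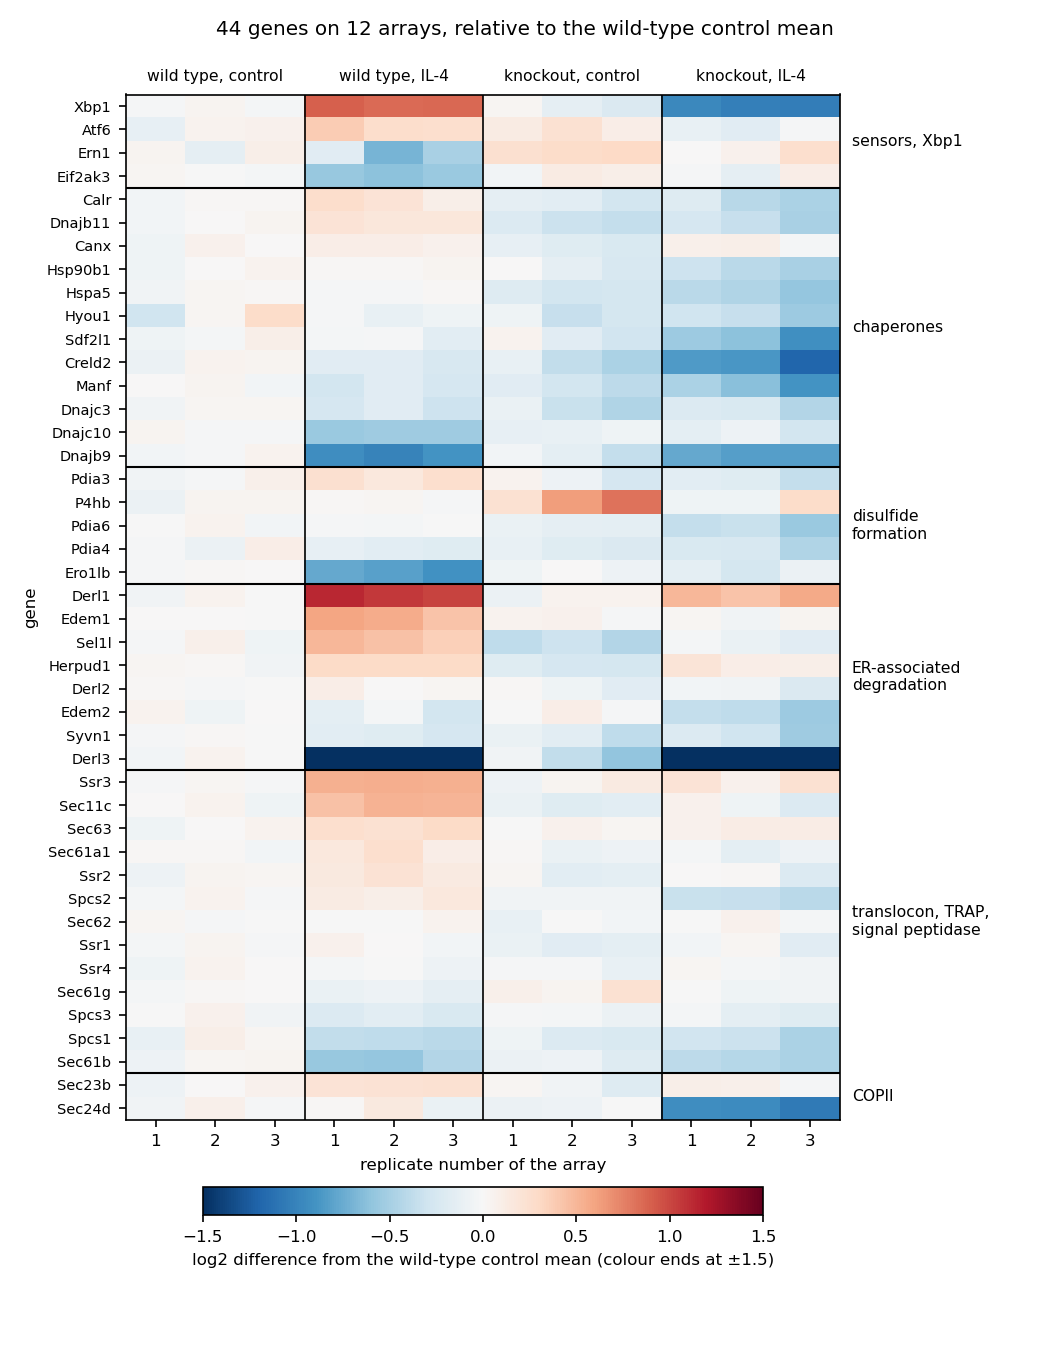
Each row is a gene, each column an array, and colour gives the log2 difference from the mean of the 3 wild-type controls. Xbp1, Derl1, Edem1, Ssr3 and Sec11c are red in the wild-type IL-4 columns, Derl3 is dark blue in all 6 IL-4 columns, and most chaperone rows are pale to mid blue in the knockout IL-4 columns.

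The response to IL-4 differed between the genotypes for 25 of the 44 genes by the test of the difference itself (wild-type response minus knockout response). For 19 the difference was above 0 (43.2%, against 16.4% of all genes) and for 6 below 0 (13.6%, against 28.3%). Of the 19, 10 rose in wild type and 9 did not pass there. All 6 with a negative difference fell in wild type. Xbp1 and Derl3 passed with at least 2-fold (4.55%, against 10.6% of all genes). Over both IL-4 responses, which share no array, 10 genes passed in both genotypes, 7 of them with the same sign, and 9 passed in neither. The 3 with opposite signs were Xbp1, Atf6 and Spcs2, each higher in wild type and lower in the knockout. This overlap was not counted over all genes, so it describes the members and cannot be called particular to them. The share of members that moved one way depended on scaling. Between 40.7% and 44% of spots were well above background on an array, so the array median is the level of a dim spot. Subtracting the array median rather than the 75th percentile shifted the median of all genes by 0.15 in the knockout response and by -0.13 in the difference. It left 6 members higher and 8 lower in the knockout, and 5 above and 6 below 0 in the difference; over all genes called, the share higher went from 65.1% to 82.2% and from 36.7% to 26.5%. With quantile normalization 3 members rose and 27 fell in the knockout. With slide as a block 5 rose and 11 fell in the knockout, and 9 lay above and 7 below 0 in the difference.

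**Figure D2:**
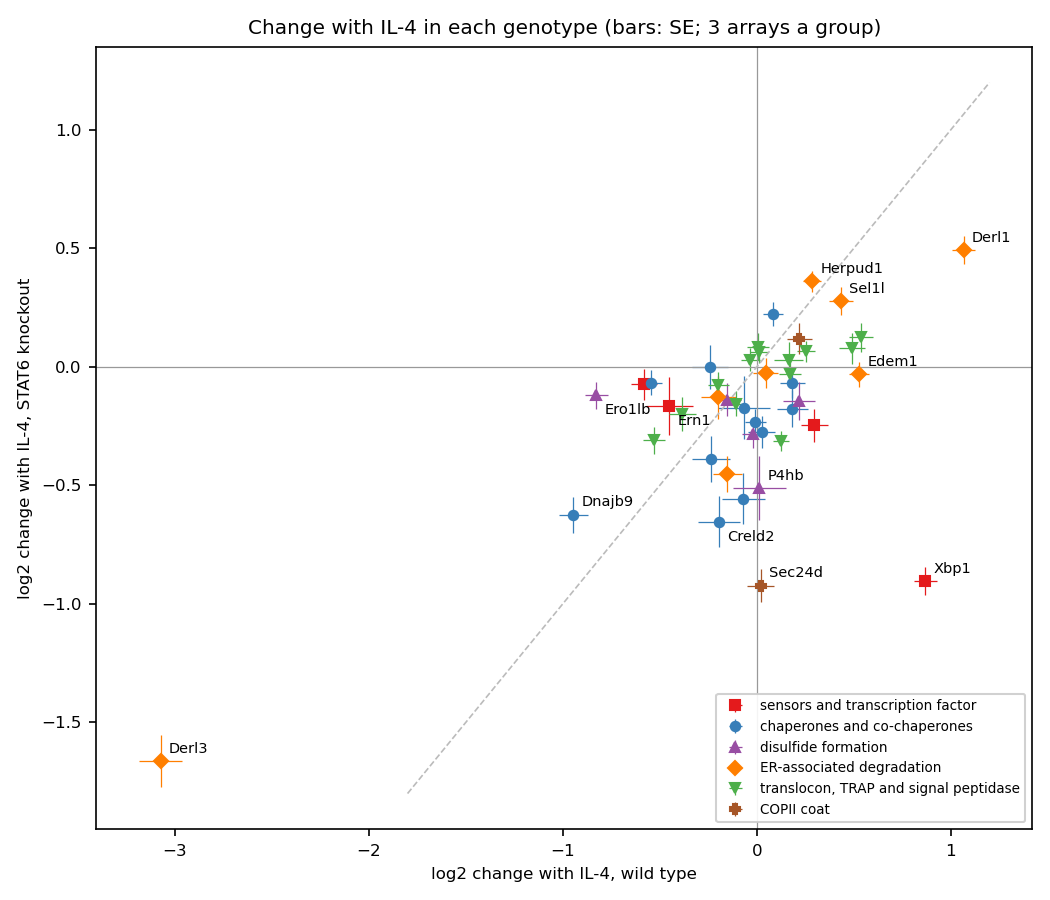
Each point is a gene, with its log2 change with IL-4 in wild type on the x axis and in the knockout on the y axis, bars of 1 SE, and shape and colour by functional group. The dashed line marks equal change. Xbp1 lies at 0.87 and -0.90, Sec24d at 0.02 and -0.92, Derl3 at -3.07 and -1.66, and Derl1 at 1.07 and 0.49.

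Among the sensors and their factor, Xbp1, the transcription factor of the IRE1 branch, moved in opposite directions. Its signal was 6.61, 6.67 and 6.60 in wild-type controls and 7.52, 7.48 and 7.49 with IL-4. In knockout controls it was 6.66, 6.49 and 6.42, and with IL-4 it was 5.66, 5.60 and 5.59. The wild-type IL-4 arrays were the highest, the knockout IL-4 arrays the lowest, and neither overlapped another group. Xbp1 rose 1.83-fold in wild type (log2 change 0.87 ± 0.06 SE, adjusted p = 6.61e-07) and fell 1.87-fold in the knockout (-0.90 ± 0.06, adjusted p = 3.58e-06). Within slide 2 the fall was -0.80 (adjusted p = 0.000159). The difference between the responses was 1.77 ± 0.08 (adjusted p = 1.19e-07). It was the largest difference in size among the 44 genes and passed under every alternative run.

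Eif2ak3, the kinase PERK, changed in wild type but the test did not pass in the knockout. It measured 2.24, 2.20 and 2.18 in wild-type controls and 1.64, 1.59 and 1.64 with IL-4. In the knockout it measured 2.17, 2.33 and 2.29 without and 2.19, 2.07 and 2.31 with IL-4. Only the wild-type IL-4 arrays stood apart, below the other 9. It fell in wild type (-0.58 ± 0.07, adjusted p = 2.78e-05), the knockout value was -0.07 ± 0.07 (adjusted p = 0.399), and the difference between the responses passed (-0.51 ± 0.09, adjusted p = 0.00147).

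Atf6, the sensor that becomes a transcription factor when cut, moved by smaller amounts in the directions of Xbp1. Wild-type controls measured 1.18, 1.35 and 1.36 and IL-4 arrays 1.67, 1.57 and 1.55. Knockout controls measured 1.42, 1.52 and 1.40 and IL-4 arrays 1.18, 1.13 and 1.28. Within each genotype the IL-4 arrays did not overlap the controls. The log2 change was 0.30 ± 0.07 in wild type (adjusted p = 0.00364) and -0.25 ± 0.07 in the knockout (adjusted p = 0.0152), and the difference passed (0.54 ± 0.10, adjusted p = 0.00126). Within slide 2 the knockout value was -0.20 and did not pass (adjusted p = 0.147), nor did it pass with median scaling or without knockout control 2 or knockout IL-4 array 2.

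Ern1, the kinase and nuclease IRE1, gave no single answer. The probe used, at chr11:106258948-106259007 in the mm9 coordinates of the files, measured -0.18, -0.35 and -0.13 in wild-type controls and -0.39, -0.92 and -0.70 with IL-4. It measured 0.02, 0.06 and 0.08 in knockout controls and -0.22, -0.15 and 0.03 with IL-4. It fell in wild type (-0.45 ± 0.12, adjusted p = 0.00926) and did not pass in the knockout (-0.16 ± 0.12, adjusted p = 0.309). A second kept probe at chr11:106275124-106275183, well above background on 6 of the 12 arrays, rose in wild type (0.84, adjusted p = 0.00603 over all kept probes). It was lowest in wild-type controls, so this rise may start from a level near background. The mean of both probes gave 0.20 in wild type, which did not pass (adjusted p = 0.287). Of the 13 members with more than 1 kept probe, Ern1 alone had probes that passed in opposite directions, and only in wild type. Of the 15 other kept probes, 10 had the sign of the probe used in wild type and 11 in the knockout. In each comparison of the genotypes 9 did.

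**Figure D3:**
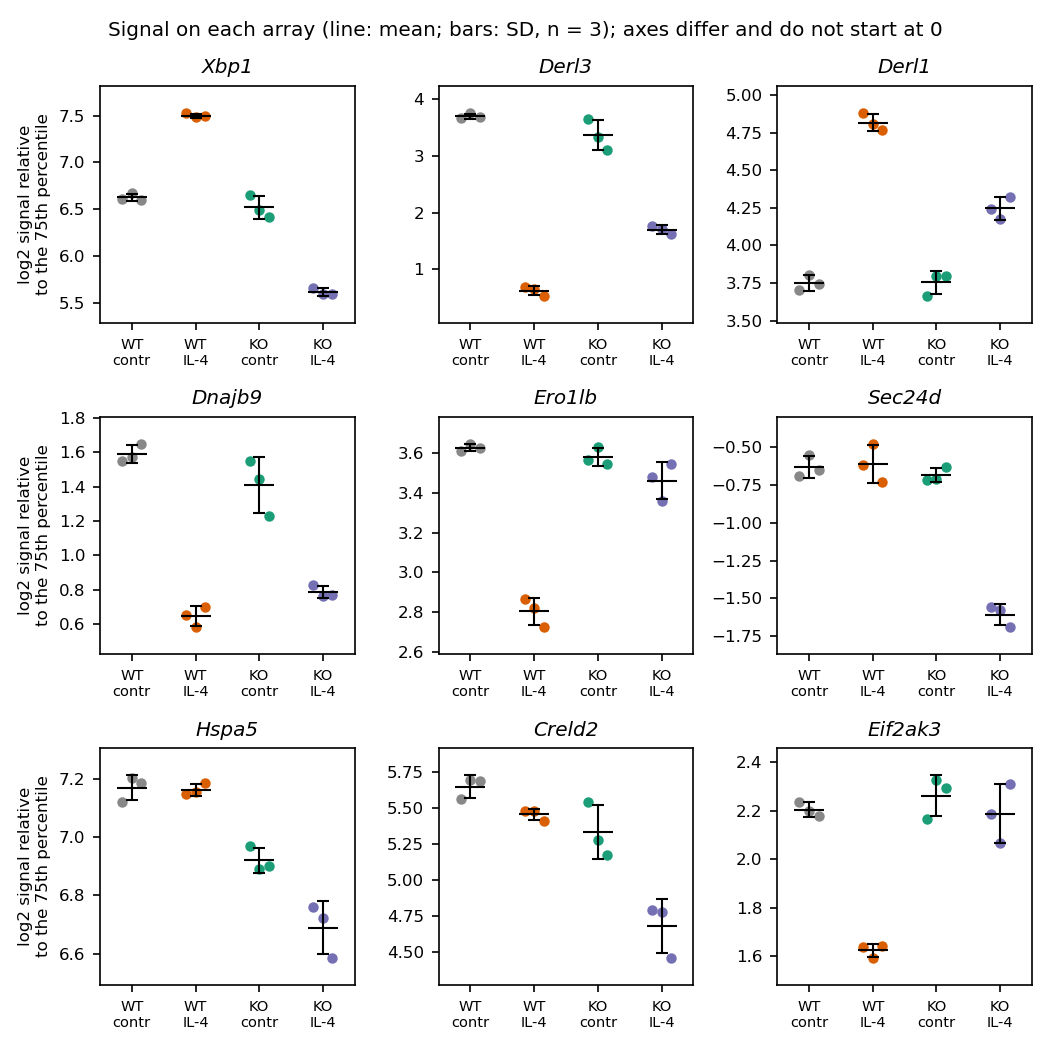
Dots are single arrays, the line is the mean and bars are the SD of 3 arrays, for 9 genes in the 4 groups, on a log2 scale relative to the 75th percentile of the array. Xbp1 is highest in wild-type IL-4 and lowest in knockout IL-4; Derl3, Dnajb9, Ero1lb and Eif2ak3 are lowest in wild-type IL-4; Sec24d, Hspa5 and Creld2 are lowest in knockout IL-4.

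The 12 chaperones and co-chaperones included those best known as markers of ER stress. In wild type 1 rose, 3 fell and 8 did not pass; in the knockout 1 rose, 6 fell and 5 did not pass. Hspa5, the chaperone BiP that binds unfolded chains and holds the sensors inactive, measured 7.12, 7.20 and 7.18 in wild-type controls and 7.15, 7.16 and 7.19 with IL-4. It measured 6.97, 6.89 and 6.90 in knockout controls and 6.76, 6.72 and 6.59 with IL-4. The wild-type groups overlapped, and the knockout IL-4 arrays lay below all others. The change was -0.01 ± 0.05 in wild type (adjusted p = 0.928), with a 95% interval reaching 0.12 to either side of it, and -0.23 ± 0.05 in the knockout (1.17-fold lower, adjusted p = 0.00594). The knockout fall did not pass within slide 2 (-0.21, adjusted p = 0.0614), with median scaling or when only the compared arrays were fitted.

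Creld2, a disulfide isomerase-like chaperone and a target of the response, fell most of the group in the knockout. It measured 5.56, 5.70 and 5.69 in wild-type controls and 5.48, 5.48 and 5.41 with IL-4, a change of -0.19 ± 0.11 that did not pass (adjusted p = 0.148). Knockout controls measured 5.54, 5.28 and 5.17 and IL-4 arrays 4.79, 4.78 and 4.46, below every other array. The fall was 1.57-fold (-0.65 ± 0.11, adjusted p = 0.000876) and also passed within slide 2 (-0.50, adjusted p = 0.0259). The other falls in the knockout were those of Sdf2l1, a BiP partner (-0.56), Manf, a secreted stress factor (-0.39), and Hsp90b1, the chaperone GRP94 (-0.27), none of which passed within slide 2 (-0.40, -0.28 and -0.16), and of Dnajb9. Canx, the lectin chaperone calnexin, rose in the knockout (0.22 ± 0.05, adjusted p = 0.00642; within slide 2, 0.28). With median scaling 3 of the 12 fell in the knockout, with quantile normalization 9 did, and with slide as a block 2 did, Dnajb9 and Creld2. The rise of Canx did not pass with quantile normalization.

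Dnajb9, the BiP co-chaperone ERdj4 and a known target of spliced Xbp1, fell in both genotypes. It measured 1.55, 1.58 and 1.65 in wild-type controls and 0.65, 0.59 and 0.70 with IL-4. In the knockout it measured 1.55, 1.45 and 1.23 without and 0.83, 0.76 and 0.77 with IL-4. All 6 IL-4 arrays were below all 6 controls. The falls were 1.93-fold in wild type (-0.95 ± 0.08, adjusted p = 2.02e-06) and 1.54-fold in the knockout (-0.62 ± 0.08, adjusted p = 0.000133; within slide 2, -0.44). Dnajc10, the disulfide reductase ERdj5, fell in wild type (-0.54 ± 0.05, adjusted p = 9.70e-06) and was -0.07 in the knockout (adjusted p = 0.344). The difference passed (-0.48 ± 0.07, adjusted p = 0.000592), though not with the mean of all probes. A second kept probe of Dnajc10 passed in neither genotype (-0.01 in wild type and 0.02 in the knockout).

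For the rest of the chaperones, changes in wild type were small. Dnajb11, the co-chaperone ERdj3, rose by 0.18 (adjusted p = 0.0301) and Dnajc3, the inhibitor p58IPK, fell by 0.24 (adjusted p = 0.0452) on the log2 scale. Both calls were lost with median scaling, with no filter on dim probes and without any 1 of several arrays, among them wild-type controls 1 and 2 and wild-type IL-4 arrays 1 and 3. Calr, the lectin chaperone calreticulin, was 0.18 (adjusted p = 0.0667) in wild type and -0.18 (adjusted p = 0.0970) in the knockout, and the difference between the responses passed (0.36 ± 0.11, adjusted p = 0.0234) but not with slide as a block (0.28, adjusted p = 0.124), with median scaling or without wild-type IL-4 array 1, knockout control 2 or knockout IL-4 array 2. Hyou1, an exchange factor for BiP, passed in no comparison; it was the member with the widest spread in wild-type controls, from -1.22 to -0.64.

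Of the 5 genes of disulfide formation, 1 rose and 1 fell in wild type, and 2 fell in the knockout. Ero1lb, an oxidase that recharges disulfide isomerases, measured 3.61, 3.65 and 3.63 in wild-type controls and 2.86, 2.82 and 2.73 with IL-4. Knockout controls measured 3.56, 3.63 and 3.55 and IL-4 arrays 3.48, 3.36 and 3.55. The wild-type IL-4 arrays were the lowest, by a margin wider than the spread of any group. The fall was 1.77-fold in wild type (-0.83 ± 0.06, adjusted p = 7.15e-07), the knockout value did not pass (-0.12 ± 0.06, adjusted p = 0.122), and the difference did (-0.71 ± 0.08, adjusted p = 7.31e-05). Pdia3, the isomerase of glycoproteins, rose by 0.22 in wild type (adjusted p = 0.0414), a call lost with the replicate block, with median scaling, with no filter and without any 1 of 6 arrays. Pdia6 fell in the knockout (-0.28 ± 0.06, adjusted p = 0.00363; within slide 2, -0.27), though not with median scaling. Pdia4 passed in no comparison.

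P4hb, the disulfide isomerase PDI, fell with IL-4 in the knockout from a raised level in the controls. It measured 4.32, 4.72 and 4.91 in knockout controls, where the spread was wide, and 4.03, 4.03 and 4.36 with IL-4, so these groups overlapped. The wild-type arrays lay between 4.01 and 4.14. The knockout change was -0.51 ± 0.14 (adjusted p = 0.0129), within slide 2 it was -0.77 (adjusted p = 0.00798), and it did not pass when only the compared arrays were fitted.

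Of the 8 genes of ER-associated degradation, which draws misfolded proteins out of the ER for the proteasome, 4 rose and 1 fell in wild type, and 3 rose and 2 fell in the knockout. Within this group the derlins, membrane proteins of the channel, moved apart. Derl3 measured 3.66, 3.75 and 3.69 in wild-type controls and 0.68, 0.66 and 0.54 with IL-4. In knockout controls it measured 3.65, 3.34 and 3.11, and with IL-4 it measured 1.77, 1.71 and 1.62. All 6 IL-4 arrays lay below all 6 controls, and the wild-type IL-4 arrays lay below the knockout ones. The falls were 8.42-fold (-3.07 ± 0.11, adjusted p = 5.67e-09) and 3.17-fold (-1.66 ± 0.11, adjusted p = 3.73e-06; within slide 2, -1.41), and they differed (-1.41 ± 0.16, adjusted p = 5.88e-05). This was the largest change of any member in each genotype.

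Derl1 rose in both. It measured 3.70, 3.80 and 3.74 in wild-type controls and 4.88, 4.81 and 4.76 with IL-4, and 3.67, 3.80 and 3.80 in knockout controls and 4.24, 4.17 and 4.32 with IL-4. The 6 controls overlapped between genotypes, and each IL-4 group stood above them without overlap. The rise was 2.10-fold in wild type (1.07 ± 0.06, adjusted p = 1.25e-07) and 1.41-fold in the knockout (0.49 ± 0.06, adjusted p = 0.000125; within slide 2, 0.45). The responses differed by 0.58 ± 0.08 (adjusted p = 0.000339). By the probe used, Derl2 was 0.05 in wild type and -0.03 in the knockout and passed in no comparison. Another kept probe of Derl2 rose in wild type (0.19, limma adjusted p = 0.0167 over all kept probes), and a further kept probe did not pass there (0.006).

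Edem1, a mannosidase-like protein that hands glycoproteins to degradation, rose in wild type (0.53 ± 0.05, adjusted p = 1.22e-05) and was -0.03 in the knockout (adjusted p = 0.681), and the responses differed (0.56 ± 0.08, adjusted p = 0.000211). Edem2, of the same family, fell in the knockout (-0.45 ± 0.07, adjusted p = 0.000887; within slide 2, -0.41) and was -0.15 in wild type (adjusted p = 0.108). Sel1l, the adaptor of the ubiquitin ligase HRD1, rose in both (0.43 ± 0.06 and 0.28 ± 0.06; adjusted p = 0.000136 and 0.00441). Herpud1, an ER membrane protein induced by stress, also rose in both (0.28 ± 0.05 and 0.36 ± 0.05; adjusted p = 0.000377 and 0.000181). For neither Sel1l nor Herpud1 did the difference between the responses pass (adjusted p = 0.164 and 0.363). Syvn1, HRD1 itself, was -0.20 in wild type (adjusted p = 0.0858) and -0.13 in the knockout (adjusted p = 0.286).

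The 13 genes of entry into the ER comprise subunits of the Sec61 channel and its partners, the translocon-associated protein complex (TRAP, genes Ssr1 to Ssr4) and signal peptidase. By the probes used, 5 rose and 3 fell in wild type, and in the knockout 4 fell and 9 did not pass. Subunits of one complex moved apart in wild type. Ssr3 rose (0.54 ± 0.06, adjusted p = 3.19e-05) while Ssr1, Ssr2 and Ssr4 did not pass (0.01, 0.16 and -0.03). With the mean of its kept probes Ssr1 passed as a fall (-0.25, adjusted p = 0.0179). Sec61b fell (-0.53 ± 0.06, adjusted p = 1.93e-05), Sec61a1, the pore, rose by 0.17 (adjusted p = 0.0237), and Sec61g was -0.11 (adjusted p = 0.111). In signal peptidase, which cuts off signal peptides, Sec11c, a catalytic subunit, rose (0.49 ± 0.07, adjusted p = 1.00e-04), Spcs1 and Spcs3 fell (-0.38 and -0.20) and Spcs2 rose by 0.13 (adjusted p = 0.0259). The rise of Spcs2 was lost with the mean of its probes (-0.02), with median scaling and with quantile normalization. Median scaling also removed the calls of Sec61a1 as rising and of Spcs3 as falling. Sec63, a partner of the channel, rose by 0.25 (adjusted p = 0.000679), and Sec62 passed in no comparison by the probe used. A second kept probe of Sec62 rose in wild type (0.62, limma adjusted p = 0.0427 over all kept probes) and in the knockout (0.66, adjusted p = 0.0447). That of Sec63 also rose in both (0.35 and 0.36), and its difference between the responses did not pass (-0.007). The second kept probe of Spcs3 did not pass in wild type (0.03) and fell in the knockout (-0.37).

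In the knockout the 4 falls of this group were those of Sec61b (-0.31), Spcs2 (-0.31), Spcs1 (-0.20) and Sec61g (-0.15). Sec61b and Sec61g also passed within slide 2 (-0.23 and -0.27), as did Spcs2 (-0.32), whereas Spcs1 did not (-0.13, adjusted p = 0.345). The calls of Sec61g and Spcs1 were also lost without any 1 of several arrays, among them each wild-type IL-4 array. With median scaling 2 genes of the group rose in the knockout and none of the 4 falls kept its call; with quantile normalization 6 fell. Ssr3 was 0.13 (adjusted p = 0.128) and Sec11c 0.08 (adjusted p = 0.367) in the knockout, and both responses differed between genotypes (0.41 ± 0.09 and 0.41 ± 0.09; adjusted p = 0.00358 and 0.00509), though not with median scaling.

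Of the COPII coat, which buds vesicles from the ER, the set holds Sec23b and Sec24d. Sec24d, which picks cargo, measured -0.69, -0.55 and -0.65 in wild-type controls and -0.61, -0.48 and -0.73 with IL-4. It measured -0.72, -0.71 and -0.63 in knockout controls and -1.56, -1.58 and -1.69 with IL-4. The other groups overlapped, and the knockout IL-4 arrays stood below them all. The wild-type change was 0.02 ± 0.07 (adjusted p = 0.823) and the knockout fall 1.90-fold (-0.92 ± 0.07, adjusted p = 7.73e-06; within slide 2, -0.98), and the responses differed by 0.94 ± 0.10 (adjusted p = 3.74e-05). Its promoter stretch is the one printed above with TGACGTGG. Sec23b rose by 0.22 in wild type (adjusted p = 0.0143; lost with median scaling or without wild-type control 1) and was 0.12 in the knockout (adjusted p = 0.165).

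Without IL-4, the genotypes differed at few of these genes. Compared with wild-type controls, knockout controls were higher for 1 member (2.27%, against 4.73% of all genes) and lower for 4 (9.09%, against 6.96%), and 39 did not pass. By the probes used, sizes ran from -0.38 to 0.56, so that none reached 2-fold, as 1.18% of all genes did. For Ern1 the probe used gave 0.27 and did not pass (adjusted p = 0.151). The second kept probe of Ern1 was well above background on only 6 arrays and was lowest in wild-type controls, so it is given no fold. It read 1.07 higher in the knockout (limma adjusted p = 0.0193 over all kept probes). That difference may be taken against a level near background, so it cannot decide whether Ern1 reached 2-fold. The higher gene was P4hb (0.56 ± 0.14, adjusted p = 0.0318). The lower genes were Sel1l (-0.38 ± 0.06, adjusted p = 0.00746), Dnajb11 (-0.29, adjusted p = 0.0235), Hspa5 (-0.25, adjusted p = 0.0227) and Herpud1 (-0.23, adjusted p = 0.0186). Within slide 1 Sel1l alone passed (-0.35, adjusted p = 0.0311), and Sel1l was the only one of the 5 whose call held under every alternative run, a 2-fold minimum aside. This count moved more than any other: 21 were lower with median scaling, which shifted the median of all genes by -0.18 here and moved the share higher among all genes called from 40.4% to 8.37%. It was 10 without knockout control 1, 9 without knockout IL-4 array 3, 2 without wild-type control 1 or 3, and 1 without wild-type control 2 or knockout control 2 or 3. P4hb lost its call without any of the wild-type controls and without knockout control 2 or 3.

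With IL-4, knockout cells were lower than wild-type cells for 24 members (54.5%, against 21.3% of all genes) and higher for 5 (11.4%, against 29.8%). The median over members was -0.20, where that of all genes was 0.06, and the median size was 0.38, against 0.25 for all genes. At 2-fold or more, Xbp1 was lower and Derl3 higher (4.55%, against 9.68%). Xbp1 was 3.68-fold lower (-1.88 ± 0.06, adjusted p = 2.67e-09) and Sec24d, at -0.999 on the log2 scale, fell just short of 2-fold (adjusted p = 9.84e-07). Creld2 (-0.78), Sdf2l1 (-0.63), Derl1 (-0.57), Sec11c (-0.56), Calr (-0.55), Dnajb11 (-0.54), Sel1l (-0.53), Edem1 (-0.52), Spcs2 (-0.49) and Hspa5 (-0.47) followed. The 5 higher in the knockout were Derl3 (1.07), Ero1lb (0.66), Ern1 (0.56), Eif2ak3 (0.56) and Dnajc10 (0.38). The groups compared lie on different slides, and with slide as a block, which takes the slide effect from the knockout controls, 13 were lower and 5 higher. Xbp1 (-1.72) and Sec24d (-1.08) were among the 13. Atf6, Hsp90b1, Sdf2l1, Manf, Pdia3, Edem2, Herpud1, Ssr2, Sec61a1, Sec63 and Sec23b lost the call as lower and Ern1 the call as higher, while Dnajb9 gained one (0.41). By scaling the count moved less: 20 were lower with median scaling and 27 with quantile normalization. Of the 12 chaperones, 7 were lower and 1 higher; with slide as a block 4 were lower and 2 higher, with median scaling 7 were lower and with quantile normalization 8.

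Set against the mean of the wild-type controls, the median member lay between -0.03 and 0.03 on the wild-type arrays, after rounding. On knockout controls 1, 2 and 3 it was -0.06, -0.12 and -0.16, and on the knockout IL-4 arrays -0.15, -0.17 and -0.25. The knockout control on slide 2 was thus close to the IL-4 arrays on the same slide. The part of the slide in the knockout medians was not tested. The SD of a member among the arrays of a group had a median of 0.05 and 0.04 in wild type without and with IL-4 and of 0.07 and 0.09 in the knockout. Over all genes it was 0.07 and 0.07 in wild type and 0.10 and 0.11 in the knockout.

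Across the 4 group means, the wild-type IL-4 group was the highest for 22 of the 44 genes, the wild-type control for 17 and the knockout control for 5. The knockout IL-4 group was the lowest for 19, knockout controls and wild-type IL-4 for 10 each, and wild-type controls for 5. The same counts were not made over all genes, so these describe the members and cannot be called particular to them.

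Among the 10 genes with ERSE in their promoter window, Derl3, Ero1lb and Dnajc3 fell in wild type and 7 did not pass, with a median of -0.11; in the knockout Canx rose, Hspa5, Derl3, Hsp90b1, Pdia6 and Creld2 fell and 4 did not pass, with a median of -0.20. The rise of Canx was lost with quantile normalization, and the falls of Dnajc3, Hspa5, Hsp90b1 and Pdia6 with median scaling. Of the 26 matched genes without it, 10 rose and 6 fell in wild type (median 0.01), and 2 rose and 10 fell in the knockout (median -0.11). The pair with ERSE-II, Herpud1 and Dnajb11, both rose in wild type, and Herpud1 rose in the knockout.

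**Figure D4:**
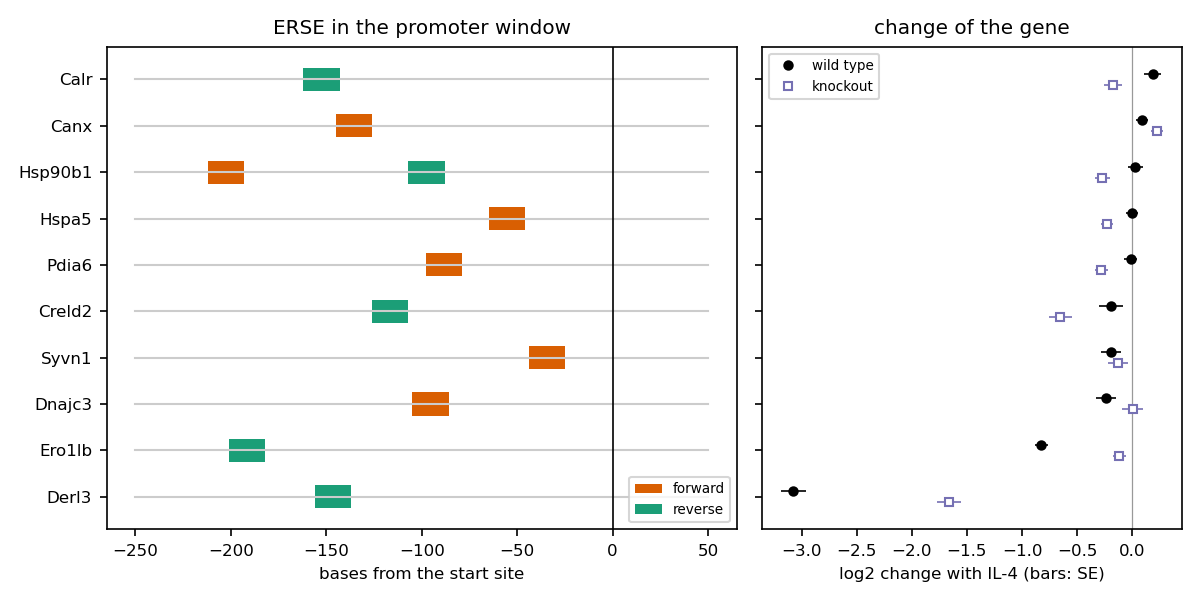
Left, the promoter window of each gene with ERSE, in bases from the start site, with the element as a box (orange forward, green reverse; Hsp90b1 has 2). Right, its log2 change with IL-4 in wild type (filled) and knockout (open) with bars of 1 SE; wild-type values run from -3.07 for Derl3 to 0.18 for Calr, and knockout values from -1.66 to 0.22.

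Further genes of the pathway were taken from lists chosen for their role, with earlier results of these data known. Their shares therefore describe the lists and are no test of them. The arm below PERK, with ATF4, CHOP (gene Ddit3) and their targets, rose: 12 of its 15 genes in wild type and 11 of 15 in the knockout, and the others did not pass. These are 80% and 73.3%, where 26.4% and 27.5% of all genes rose. The median log2 change was 0.94 and 0.60. ATF4 is a transcription factor also induced by amino acid shortage and other stresses that do not begin in the ER. Ddit3 measured 2.66, 2.80 and 2.75 in wild-type controls and 4.74, 4.75 and 4.64 with IL-4, and 2.58, 2.94 and 3.18 in knockout controls and 4.11, 3.99 and 4.13 with IL-4. All IL-4 arrays lay above all controls. The rise was 3.92-fold and 2.27-fold (1.97 ± 0.12 and 1.18 ± 0.12; adjusted p = 3.15e-07 and 5.31e-05), and within slide 2 it was 0.90. Cebpb, a partner factor of ATF4, rose by 2.24 and 1.29, Nupr1, a stress-induced chromatin protein, by 2.32 and 1.65, and Sesn2, an inhibitor of growth signalling, by 1.44 and 0.80. Atf4 itself rose by 0.81 and 0.60. Ddit3 and Atf4 were picked for this text after their values had been seen. The response was larger in wild type than in the knockout for 7 of the 15 genes by the test of the difference and smaller for 1; with slide as a block it was larger for 11 and smaller for 1. With median scaling 13 rose in wild type and 11 in the knockout, and with quantile normalization 12 and 11.

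Counts for the other lists are given for wild type first, where 26.4% of all genes rose and 30.8% fell, and then for the knockout, where 27.5% rose and 14.7% fell. The share of a list that rose ran from 30.8% to 67.7% in wild type and from 19.4% to 47.4% in the knockout. The coat and cargo list was the highest in wild type and the lowest in the knockout, and several lists lay near the share of all genes. Of 31 genes of the COPII and COPI coats and cargo receptors, 21 rose and 2 fell in wild type, and 6 rose and 4 fell in the knockout; Copb1, a COPI subunit, rose by 0.52 and 0.25, Tmed10, a cargo receptor, rose by 0.46 in wild type, and Bet1, a vesicle fusion protein, fell by 0.67 and 0.36. Among 19 further genes of ER-associated degradation 11 rose and 1 fell, then 9 rose and 3 fell, and Man1b1, a mannosidase, and Ube2g2, a ubiquitin-conjugating enzyme, rose by 0.56 and 0.54 in wild type, with Aup1, which recruits it, at 0.42. Of 19 genes of glycan transfer and processing 7 rose and 1 fell, then 7 rose and 2 fell; Krtcap2 and Stt3b, subunits of oligosaccharyltransferase, rose by 0.72 and 0.70 in wild type, and Pgm3, of sugar nucleotide synthesis, by 0.34. Of 18 further folding and redox factors 7 rose and 6 fell, then 4 rose and 5 fell, with Erp44, which retains proteins in the ER, at 0.69, Cnpy3, a chaperone of Toll-like receptors, at 0.57 and Txndc11 at -0.80 in wild type. Of 12 genes of the signal recognition particle and further translocon partners 6 rose and 2 fell, then 3 rose and 1 fell, with Srp54a at 0.62, Srpr at 0.53 and Tram2 at -0.95 in wild type. Of 13 targets of IRE1 decay and other stress factors 4 rose and 5 fell, then 5 rose and 2 fell, with Mbtps2, a protease that cuts ATF6, at 0.88, Hgsnat at 0.43 and Creb3l2, a stress factor of the ATF6 type, at -0.91. The knockout counts of these lists moved with the scaling: the coat and cargo list had 8 rising and 1 falling with median scaling, 2 and 8 with quantile normalization, and 2 and 3 with slide as a block. The degradation list had 10 rising with median scaling and 7 rising and 6 falling with quantile normalization. In wild type, genes that rose outnumbered those that fell in both of these lists under each scaling (17 and 1 or 20 and 3 for coats and cargo).

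**Figure D5:**
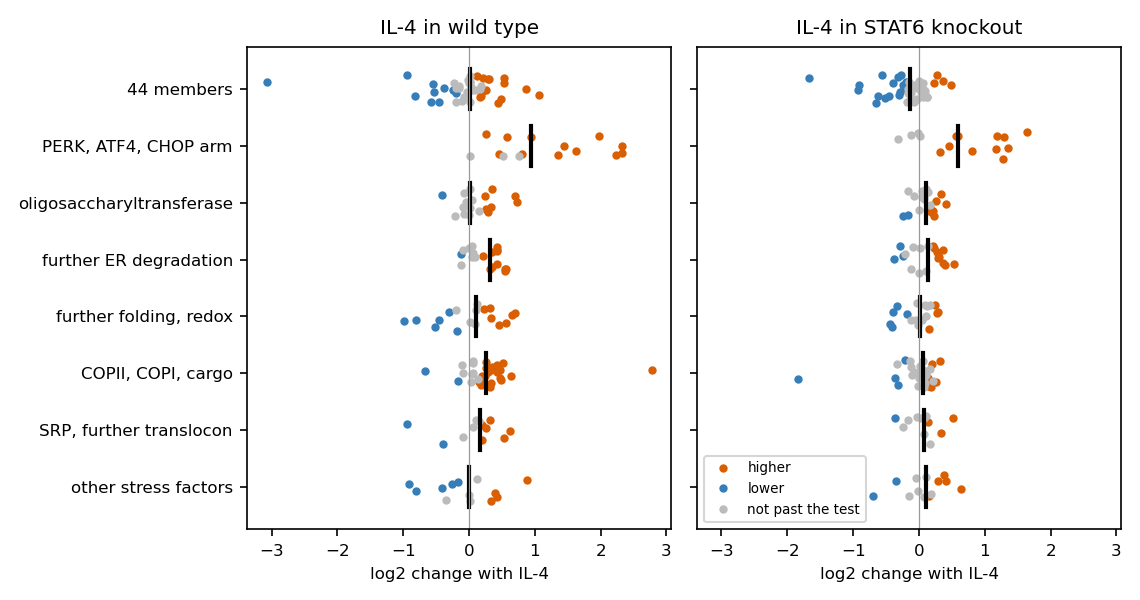
Each dot is a gene, by list, at its log2 change with IL-4 in wild type (left) and knockout (right); orange rose, blue fell, grey did not pass, and the black line is the list's median. The PERK, ATF4 and CHOP row lies to the right in both panels (medians 0.94 and 0.60), while the 44 genes centre at 0.01 and -0.13. The far dot in the COPII row is Kdelr3, which was well above background on none of the 3 knockout IL-4 arrays.

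Markers of plasma cells moved beside these genes. Prdm1, the regulator Blimp-1, measured 1.88 to 2.02 in wild-type controls and -0.95 to -0.77 with IL-4, and 1.54 to 1.77 and -0.13 to 0.08 in the knockout. Igj, the joining chain of secreted antibody, fell by 5.82 and 3.44 on the log2 scale. Over the 7 plasma cell markers tested, 4 rose and 2 fell in wild type, and 2 rose and 4 fell in the knockout. Slamf7 (0.76 and 0.39) and Irf4 (0.29 and 0.23) rose in both, Sdc1 rose in wild type (0.76) and Mzb1 fell in the knockout (-0.39). Cd28, also a T cell gene and well above background on 11 of the 12 arrays, rose by 1.84 and fell by 1.44. Within slide 2 the knockout changes were 0.33 for Slamf7, 0.19 for Irf4, -0.40 for Mzb1, -1.28 for Cd28, -1.57 for Prdm1 and -3.12 for Igj. The summed level of the 8 markers on the array, in multiples of the 75th percentile, was 376 to 388 in wild-type controls, 331 to 333 with IL-4, 350.3 to 383 in knockout controls and 235 to 256 in knockout IL-4 arrays, which did not overlap the others. Mzb1 made up 62.9% to 80.3% of that sum, which therefore says little of the other markers; Igj went from 21.8% to 0.446% of it in wild type. The part of cells on the way to plasma cells in the values of the 44 genes was not tested. In RNA from a whole culture, fewer cells of a type and less RNA per cell cannot be told apart. The summed macrophage markers were 20.0 to 20.9 in wild-type IL-4 and 56.0 to 61.4 in the other groups, but the drop was not shared by the class. Mpeg1 (-3.73) and Emr1 (-0.92) made up most of it, Cd68 fell by 0.45, Csf1r did not pass (-0.12) and Cd14 rose by 0.38. In the knockout Emr1 rose (0.55) and Cd68 fell (-0.92). B cell markers moved too: in wild type Blk (-1.26), Cd79a (-0.91), Pax5 (-0.78) and Cd22 (-0.57) fell and Cd79b (0.64) rose, and in the knockout 4 of the 8 rose and 1 fell. Within slide 2 these knockout changes were 0.30 for Cd37, 0.20 for Cd79b, 0.19 for Ms4a1, 0.35 for Pax5 and -0.25 for Blk. For 6 of the 8 B cell markers the response differed between genotypes. Of the 4 dendritic cell markers tested, Flt3 fell (-1.65) and Zbtb46 (1.35) and Siglech (0.31) rose in wild type, and Zbtb46 rose in the knockout (0.98); Itgax, which also rose in wild type, was well above background on 3 of the 12 arrays and is given no fold. The part of these markers in the values of the 44 genes was not tested.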

How the data were processed

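RNA of 12 B cell cultures was measured on Agilent 1-colour arrays. Per the file headers, Agilent Feature Extraction 10.7.3.1 wrote the scanner output that the authors deposited, and its processed signal is an intensity with background subtracted and no scaling between arrays. The authors also deposited a gene-level table, on a log2 scale and quantile normalized per its first line, which was used as an alternative.

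Each processed intensity was divided by the 75th percentile over the non-control spots of its array (296 to 356) and its log2 taken. Spots with outlier flags (122 to 196 per array) were left out. A probe was kept when some group had it well above background on each array (22940 of 55681, 59 of 62 for the members), and the brightest kept probe stood for its gene. The 12 arrays were fitted together in limma 3.58.1 (R 4.3.3), with 5 contrasts of the group means, and the Benjamini-Hochberg adjustment ran over 16497 genes; the script was tested on simulated data. Contrasts share arrays, except the IL-4 responses of the genotypes. Same-numbered arrays of different groups mostly did not deviate together (correlations -0.24 to 0.39, over 0.1 in 2 of 18), so they were not paired. Both of the 2 were knockout control with knockout IL-4, arrays 1 (0.32) and 3 (0.39), while arrays 2 gave -0.02. Differently numbered arrays reached 0.31. The precision is limited by 3 arrays a group.

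Values on every array are given for the sensors, Xbp1, Hspa5 and the 5 members with the largest change with IL-4 in each genotype (P4hb was added after its values had been seen); for other lists, up to 3 genes with the smallest adjusted p in wild type. The members and lists were chosen with earlier results of these data known. Alternatives were other scalings, background corrections, filters and probe rules, the authors' table, slide or replicate number as a block, fewer arrays and other variance settings. Promoter windows are from RefSeq (GRCm38.p6); Ero1lb was matched as Ero1b. Python 3.11.15 with pandas 2.3.3 and matplotlib 3.10.9 drew the figures. The erythroid marker list is not reported here.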

Additional observations from a re-analysis of the deposited data

Results flagged for a closer look

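The response to IL-4 differed between wild type and knockout, by the test of the difference itself, for 25 of the 44 genes. Values are the log2 change in wild type minus that in the knockout. Among the sensors and Xbp1, the difference was 1.77 for Xbp1, 0.54 for Atf6 and -0.51 for Eif2ak3. Among chaperones it was 0.49 for Sdf2l1, 0.46 for Creld2, 0.36 for Calr, 0.30 for Hsp90b1, 0.25 for Dnajb11, 0.23 for Hspa5, -0.32 for Dnajb9 and -0.48 for Dnajc10. In disulfide formation it was 0.52 for P4hb, 0.36 for Pdia3, 0.27 for Pdia6 and -0.71 for Ero1lb. In ER-associated degradation it was 0.58 for Derl1, 0.56 for Edem1, 0.30 for Edem2 and -1.41 for Derl3. In translocation and signal peptide removal it was 0.44 for Spcs2, 0.41 for Ssr3, 0.41 for Sec11c, 0.19 for Sec63 and -0.22 for Sec61b. For Sec24d it was 0.94. Of the 25, 8 passed under every alternative run, a 2-fold minimum aside: Xbp1, Atf6, Eif2ak3, Ero1lb, Edem1, Derl1, Derl3 and Sec24d. No group of 3 arrays was examined for outlying arrays.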

How the results depend on the processing

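Counts of members called, as rising and falling, varied with the processing. In wild type (14 and 10), 9 rose with median scaling and with no filter on dim probes, and 1 rose and 1 fell at 2-fold or more. In the knockout (4 and 17), 7 rose with the mean of all probes; 27 fell with quantile normalization, 26 with the authors' deposited table, 11 with slide as a block or with only the compared arrays and 8 with median scaling; at 2-fold, 0 rose and 1 fell. For the difference between responses (19 and 6), 5 lay above 0 with median scaling, 8 with no filter and 9 with slide as a block, and at 2-fold 1 lay above and 1 below. For knockout minus wild type without IL-4 (1 and 4), 2 were higher with the mean of all probes and 0 with no filter, slide as a block, only the compared arrays or 2-fold; 21 were lower with median scaling, 8 with normexp correction or an intensity trend, 2 with only the compared arrays, 1 with no filter or slide as a block and 0 at 2-fold. With IL-4 (5 and 24), 13 were lower with slide as a block, and at 2-fold 1 was higher and 1 lower.

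Leaving out each array in turn gave 10 to 15 rising and 9 to 13 falling in wild type, 4 to 5 and 14 to 17 in the knockout, 0 to 1 higher and 1 to 10 lower without IL-4, and 5 to 6 and 22 to 25 with it. For the difference it gave 8 to 17 above and 4 to 7 below 0: 8 without wild-type IL-4 array 1, 10 without wild-type control 1, and 12 without wild-type control 2, wild-type IL-4 array 2 or knockout control 2. With a replicate block, a paired fit by number, 14 rose and 12 fell in wild type, 4 and 15 in the knockout, and the difference was above 0 for 18 and below for 5; genotype counts were 1 and 4 without and 5 and 23 with IL-4.

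The mean of all probes turned the sign for Ern1 (0.20), Ssr1 (-0.25, which passed) and Spcs2 (-0.018) in wild type and for Spcs3 (-0.13) in knockout minus wild type with IL-4. Slide as a block turned Sec23b there (0.014). The cause was not tested. A 2-fold minimum aside, calls held under every alternative for 16 of 24 members in wild type, 9 of 21 in the knockout, 8 of 25 for the difference, 1 of 5 without and 17 of 29 with IL-4. The 3 arrays a group limit what small changes can be seen.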
